A study of Mus musculus with 14 samples.

Results

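CP_8 is a label of a cluster of nuclei from brain vascular fragments, 1 of 21 such labels. Its members were taken from the deposited annotation as all nuclei with that label, and its choroid plexus markers *Ttr*, *Folr1*, *Kl*, *Enpp2* and *Otx2* were set for the check of the label. The label holds 1497 of 31324 brain nuclei, in a series of 109000 nuclei with the retina included. The 2 brain libraries come from mice at postnatal day 14 by the study's methods, whereas the series text calls the animals young adults. CKO mice were *Cdh5CreER;Tgfbr1 CKO/-*, with 1 conditional and 1 null allele of *Tgfbr1*, and received 4-hydroxytamoxifen on postnatal days 3 to 5. The control mice are given as wild type in the labels, without their treatment. *Cdh5CreER* drives Cre in endothelial cells (ECs), so the epithelium described here is not the cell type in which deletion was induced. Each library pooled vascular fragments of 2 brains, enriched through Ficoll and caught on a filter, and there was 1 library per genotype. No difference between the genotypes could therefore be tested, and all intervals are 95% intervals that cover counting error only.

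The choroid plexus is a folded epithelium around leaky capillaries in the brain ventricles, where it makes the cerebrospinal fluid. Its epithelial cells move sodium, chloride, bicarbonate and water from blood to ventricle, seal the path between cells with tight junctions, and secrete carriers such as transthyretin, which binds thyroid hormone. They arise next to the ependymal cells that line the ventricles. Both kinds of cell carry tufts of cilia, which beat on ependymal cells, while those of the choroid plexus are mostly not motile in the adult.

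The control library held 902 CP_8 nuclei with 2273167 UMIs (unique molecular identifiers, which count each captured RNA molecule once), and the CKO library 595 nuclei with 715565 UMIs. The median CP_8 nucleus had 1721 UMIs in control and 666 in CKO, and single nuclei ranged from 285 to 30498 UMIs. This depth gap was wider than that over all brain nuclei, whose medians were 1541 and 1395 UMIs, but it was not particular to CP_8. The median was lower in CKO in every label except the ECs, at 1347 and 1491 UMIs, and microglia, at 402 and 548. It was at 4669 and 1804 UMIs in Glut_11, 3495 and 1408 in GABA_9, and 1307 and 869 in CP_6. Of 26528 genes, 20581 had at least 1 UMI in CP_8. The libraries shared 2 barcodes, and 0 of them belonged to a CP_8 nucleus. The tissue is labelled as brain endothelial cells, yet nuclei labelled ECs made up 14.9% of control and 20.1% of CKO nuclei.

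The deleted gene was read first. In CP_8, *Tgfbr1* had 139 UMIs in the control library, or 61.1 counts per 1000000 UMIs (CPM, 51.4 to 72.2), and 29 UMIs in the CKO library, or 40.5 CPM (27.1 to 58.2). In nuclei labelled ECs, where the deletion was induced, *Tgfbr1* was at 69.1 CPM (62.5 to 76.2) in control and 62.9 CPM (57.1 to 69.1) in CKO. These 3′ counts need not cover the deleted exon, so they check neither the genotype nor the deletion. *Cdh5*, whose promoter drives Cre, had 14 UMIs in control and 10 in CKO nuclei of CP_8, against 3872 and 6874 in the ECs.

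The CP_8 nuclei of the libraries also differed in their sex-linked RNA. *Xist*, the RNA that coats the inactive X chromosome of females, had 7009 UMIs in control CP_8 nuclei and 11 in CKO CP_8 nuclei. The Y-linked genes *Uty*, *Ddx3y*, *Kdm5d* and *Eif2s3y* had 353, 150, 108 and 290 UMIs in control CP_8 nuclei. In CKO CP_8 nuclei they had 275, 75, 44 and 85 UMIs. The control CP_8 nuclei thus held RNA of both sexes and the CKO CP_8 nuclei nearly none of *Xist*, and sex, depth and genotype cannot be told apart in what follows.

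All 5 markers stood far above the rest of the brain nuclei in CP_8, in both libraries. *Ttr*, which codes for transthyretin, was at 40364 CPM (40103 to 40626) in control and 38980 CPM (38524 to 39441) in CKO. Its ratio of CP_8 to all other brain nuclei was 87.0 (86.0 to 88.0) over both libraries. The ratio was 62.4 (55.3 to 70.5) for *Folr1*, a folate receptor, and 108 (96.9 to 121) for *Kl*, the klotho coreceptor. For *Enpp2*, which makes the lipid mediator lysophosphatidic acid and is also an oligodendrocyte gene, the ratio was 63.6 (62.4 to 64.7). *Otx2*, a homeodomain transcription factor of the choroid epithelium, was at 77.9 (69.3 to 87.6). These ratios differed between the libraries, with 66.4 (65.5 to 67.2) in control and 171 (166 to 175) in CKO for *Ttr*, whose level in the rest was 0.375 times as high in CKO as in control. Likewise the ratio was 50.5 in control and 99.0 in CKO for *Folr1*, 80.2 and 244 for *Kl*, and 61.9 and 130 for *Otx2*, whereas *Enpp2* was at 71.1 and 54.1. Every one of the 5 was also higher in CP_8 than in the other label with the highest level, from 4.60 times for *Folr1* against CP_6 to 9.88 times for *Ttr* against vSMCs. Since all genes helped to form the clusters, these ratios describe the label and do not test it.

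**Figure D1:**
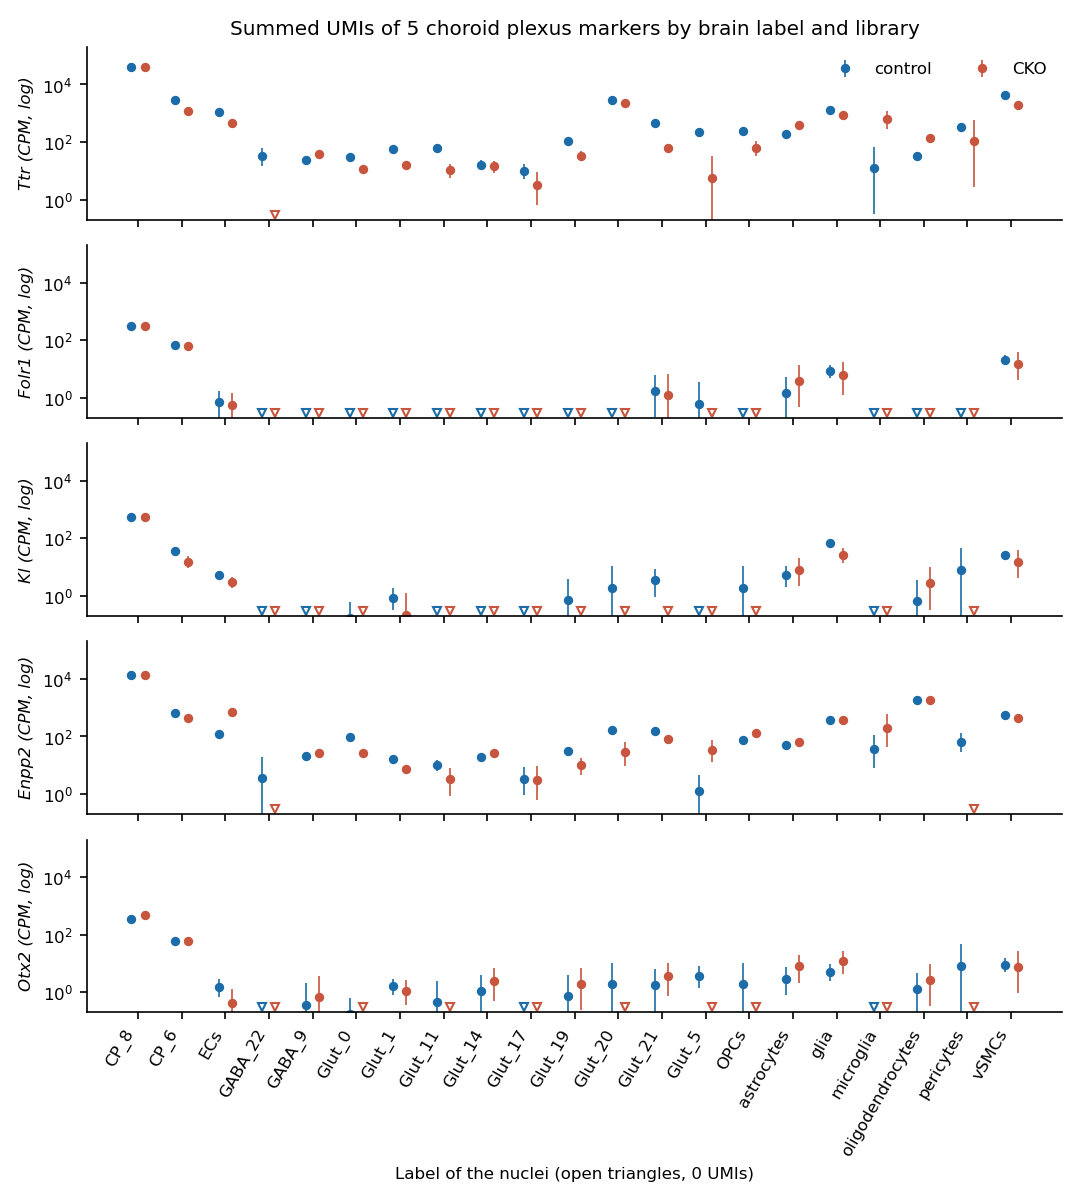
CPM of summed UMIs (log axis) of the 5 markers in each of 21 brain labels, with control in blue and CKO in red, bars for exact Poisson 95% intervals and open triangles for 0 UMIs. CP_8 is the highest label for each marker in both libraries, and *Ttr* reads 40364 CPM in control and 38980 CPM in CKO.

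*Ttr* and *Enpp2* were carried by nearly every member, and the other 3 markers by only part of them. *Ttr* was found in all 902 control and all 595 CKO nuclei, *Enpp2* in 902 and 592, and UMIs of at least 2 markers in 902 and 593, so this last count is mostly that of *Ttr* and *Enpp2*. In nuclei of Glut_0, another large label, whose median depth was 5004 UMIs in control and 2314 in CKO, at least 2 markers were found in 1.23% and 0.193%. After thinning each nucleus to 500 UMIs, which left out 51 control and 176 CKO nuclei of CP_8, at least 2 markers were found in 97.1% (95.7 to 98.1%) and 95.9% (93.6 to 97.6%). The same thinning left 0.145% and 0.103% in Glut_0, where 46 and 176 nuclei were left out. The scarcer markers depended on depth. *Folr1* was found in 45.9% of control and 30.4% of CKO nuclei before thinning, and in 18.7% and 20.8% after it. *Kl* was found in 63.3% and 43.5% before and 30.4% and 27.2% after, and *Otx2* in 51.6% and 39.7% before and 21.4% and 26.7% after. *Enpp2* was found in 20.8% of control and 4.71% of CKO nuclei of Glut_0. *Ttr* was found in 3.93% and 1.03% of them, and in 4.56% and 9.16% of astrocyte nuclei, whose median depths were 1150.5 and 578.5 UMIs. At least 2 markers were found in 1.91% and 2.95% of these astrocyte nuclei. A low level of free *Ttr* or *Enpp2* RNA thus cannot be told apart from expression outside CP_8. The 5 markers took a median of 6.05% of the UMIs of a control nucleus and 7.01% of a CKO nucleus, and 0% in other brain nuclei of either library.

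Of 90 choroid plexus genes listed, 88 were measured, without *Igf2* and *1500015O10Rik*, and 59 were led by CP_8, meaning at least 20 UMIs in CP_8 and at least 4 times the level in all other brain nuclei. By the same rule CP_8 led 1100 of 9848 genes, or 11.2%. Against the highest other label in place of all other nuclei, 27 of the choroid genes were led, and 136 (1.38%) of the 9848 genes. Ratios to the rest depended on the library. For 20 of the 59 led choroid genes, and 220 of the 1100 led genes, the ratio in the CKO library alone was more than 1.5 times that over both, which is the one given below unless a library is named. In the control library alone 55 choroid genes were led, and in the CKO library alone 57. The led genes covered secretion, ion transport and junctions most fully. By function they were 13 of 13 secreted and carrier proteins, 17 of 20 ion and water transport genes, 12 of 16 junction and keratin genes, 5 of 8 transcription factors, 8 of 20 solute transporters and 4 of 11 receptors.

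Among transcription factors, *Lmx1a*, a roof plate factor, was 95.5 times (84.7 to 108) the rest, at 395 CPM in control and 532 CPM in CKO. CP_8 held 78.6% of all brain UMIs of this gene. *Msx1* was at 19.2 times, and *Rfx2* and *Rfx3*, of a family that controls cilia genes, were at 5.79 and 4.64 times. In CKO alone *Rfx2* was at 9.53 times, but CP_6 held more of it, with CP_8 at 0.398 times (0.347 to 0.455) CP_6. *Rfx3* was higher in CP_8 than in CP_6, with an interval of 1.25 to 1.35 times. *Foxj1*, the factor that drives motile cilia programs, was not led, at 1.51 times (1.26 to 1.79) the rest, or 1.15 times (0.925 to 1.42) in control and 2.73 times (1.99 to 3.67) in CKO. *Zfp503* and *Emx2* had 15 and 7 UMIs.

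The secreted proteins were all well above the rest. *Sostdc1*, an antagonist of BMP and WNT ligands, was at 77.6 times (68.3 to 88.4), and *F5*, coagulation factor V, at 48.4 times. *Sulf1*, a sulfatase that edits heparan sulfate, was at 39.4 times, and *Ecrg4* at 32.3 times. *Igfbp2*, which binds insulin-like growth factors, was at 27.2 times the rest and 2.22 times the highest other label, glia. Toward the low end stood *Clu* at 4.43 times and *Bmp7*, a BMP ligand, at 7.88 times. Both were higher in another label, with CP_8 at 0.396 times CP_6 for *Clu* and 0.318 times glia for *Bmp7*. In the CKO library alone, *Sostdc1* was at 130 times, *F5* at 92.4, *Clu* at 7.06 and *Bmp7* at 15.9 times the rest, against 61.7, 37.3, 3.59 and 5.84 times in control, where *Clu* was thus not led.

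The machinery for fluid secretion was the fullest group after the secreted proteins. *Kcne2*, a subunit of potassium channels, had the highest ratio of all genes with at least 100 UMIs, at 337 times (240 to 487) the rest over both libraries. In control alone it was at 237 times (164 to 354), below *Defb9* at 246 times, and in CKO alone at 974 times (406 to 3058). It was at 154 CPM in control and 161 CPM in CKO, and CP_8 held 92.8% of its brain UMIs. *Tmem72* was at 267 times, *Slc4a5*, an electrogenic sodium bicarbonate cotransporter, at 252 times and *Kcnj13*, an inward rectifier potassium channel, at 99.1 times. These also had higher ratios in CKO, at 528 against 203 times in control for *Tmem72*, 559 against 185 for *Slc4a5* and 207 against 75.1 for *Kcnj13*. *Aqp1*, the apical water channel, was at 73.6 times (58.7 to 93.0), with 91.1 CPM in control and 122 CPM in CKO, and with ratios of 59.3 and 119 in each library alone. The carbonic anhydrases *Car12*, *Car14* and *Car2* were at 76.0, 15.7 and 6.76 times, and the cation channel *Trpv4* at 73.6 times. *Slc4a10*, a basolateral sodium bicarbonate transporter, was at 10.9 times and *Slc12a2*, the NKCC1 cotransporter, at 9.53 times, although pericytes held a higher *Slc12a2* level. *Atp1b1*, which codes for a beta subunit of the sodium pump, was not led, at 3.75 times, and *Kcna1* was at 0.311 times. Neurons also use *Atp1b1*, so a ratio to the rest does not measure its level.

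Solute transporters were mixed. *Abca4*, a retinoid flippase, was at 51.3 times the rest, *Steap1*, a metalloreductase, at 62.2 times and *Slc2a12*, a glucose transporter, at 33.0 times. *Slc13a4*, which takes up sulfate, was at 23.2 times (38.9 in CKO alone) and *Slc23a2*, which takes up vitamin C, at 6.41 times. Several transporters often assigned to the choroid plexus were below the rest in CP_8. *Slco1c1*, an organic anion and thyroxine transporter, was at 0.537 times and *Slc22a8* at 0.344 times, and both were highest in the ECs. The folate transporter *Slc19a1* was at 1.64 times, and *Slc15a2* at 1.00 times. These lay on different sides of the rest in the libraries, at 1.98 times in control and 0.635 times in CKO for *Slc19a1* and 0.820 and 1.57 times for *Slc15a2*.

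Among junction genes, the leaky tight junction claudin *Cldn2* was at 163 times the rest (128 to 208) and *Cldn1* at 160 times (121 to 215), or 131 times in control and 249 times in CKO. *Cldn3* was at 27.1 times on 25 UMIs, with 51.8 times (19.5 to 141) in CKO alone. The scaffold *Tjp1*, which ECs also use, was at 0.25 times and *Ocln* at 1.32 times, or 1.59 times in control and 0.719 times in CKO. *Cdh1*, the E-cadherin gene, had 17 UMIs and was at 0.237 times. Epithelial keratins were present at low counts, with 75 UMIs of *Krt18* and 29 of *Krt8*. The collagen genes of the list were led, with *Col4a3* at 60.8 times, *Col4a4* at 47.4 times, *Col9a3* at 45.8 times and *Col8a1* at 44.6 times. *Col4a3* was 18.6 times the next highest label, the ECs.

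Of the receptors, *Htr2c*, the serotonin 2C receptor, was at 93.3 times (91.8 to 94.9) the rest and 26.9 times the next label. It was at 20600 CPM (20413 to 20787) in control and 22638 CPM (22291 to 22989) in CKO. The prolactin receptor *Prlr* was at 45.6 times, the leptin receptor *Lepr* at 12.3 times and the endothelin receptor *Ednrb* at 6.33 times. *Lepr* was higher in glia and *Ednrb* in microglia, with CP_8 at 0.717 and 0.349 times these labels. *Insr*, *Igf1r*, *Lrp8*, *Adra1a* and *Calcrl* were below the rest. *Lrp2*, the megalin endocytic receptor, had 23 UMIs and was at 1.09 times, and *Avpr1a* had 0 UMIs.

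The 20 genes with the highest ratio to the rest, among those with at least 100 UMIs in CP_8, included 5 of the choroid lists. These were *Kcne2*, *Tmem72*, *Slc4a5*, *Cldn2* and *Cldn1*. The others were the cilia regulator *Gmnc*, the beta-defensins *Defb9* and *Defb11*, the lactate transporter *Slc16a8*, *Ldc1*, *Prr32* and 9 further transcripts. *Defb9* was at 323 times (230 to 468), or 246 times in control and 642 times in CKO, and *Defb11* at 166 times (120 to 236). They are members of 1 gene family, so the split of reads between them is uncertain.

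Several of these genes lie near each other in the GRCm39 genome. *Defb9* (chr8:22371729-22375437, minus strand), *Defb11* (chr8:22391261-22396485, minus strand) and the lncRNA *Gm36879* (chr8:22396680-22424329, plus strand) form 1 cluster. The lncRNAs *Gm534* (chr14:49106736-49119339, minus strand) and *4933429O19Rik* (chr14:49115836-49125242, plus strand) overlap on opposite strands. They lie on the same chromosome as *Otx2* (chr14:48894099-48911276, minus strand), and were at 254 and 247 times the rest, with *Gm534* at 388 times (214 to 775) in CKO alone. *Gm26684* (chr15:54815466-54834615, plus strand) overlaps the start of *Enpp2* (chr15:54701324-54816288, minus strand) and was at 232 times. *Cldn1* (chr16:26175392-26190596) and *Gmnc* (chr16:26732303-26810402) are both on the minus strand of chromosome 16. No source read here says whether the counting used strand, so reads of overlapping genes cannot be told apart.

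CP_8 was most like CP_6 among the other labels. The Spearman correlation across 20903 genes was 0.815 in control and 0.812 in CKO, followed by Glut_21 with 0.783 and 0.752 and by glia with 0.75 and 0.726. The genes are not independent and depth differs between labels. The lowest mean, 0.353, was that of pericytes, which had 121845 and 9213 UMIs. CP_6 had 1815 nuclei and lower levels of all 5 markers, with CP_8 at 4.60 to 22.5 times CP_6. Of its control nuclei 31.8% held at least 2 markers, and of its CKO nuclei 21.6%, at median depths of 1307 and 869 UMIs. Thinned to 500 UMIs, these shares were 12.2% and 9.11%, with 130 and 218 nuclei left out.

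Motile cilia genes were mostly lower in CP_8 than in CP_6. Of 36 motile cilia genes, 26 had at least 20 UMIs in CP_8, and 5 of these were led, a share to be read beside the 11.2% of all genes. They were *Gmnc* at 246 times (229 to 265) the rest, *Spag16* at 12.4 times, *Trp73* at 6.87 times, *Ccdc39* at 4.55 times and *Cfap44* at 4.33 times. In the CKO library alone *Gmnc* was at 440 times, *Spag16* at 19.1, *Trp73* at 11.2 and *Cfap44* at 7.08 times, against 193, 10.1, 5.50 and 3.46 times in control. Of the 26, 21 were above the rest of the brain, as were 49.4% of the 9848 genes. This minimum leaves out genes that were low in CP_8. Of the 35 motile cilia genes with at least 20 UMIs in the whole brain, 11 were below the rest, beside 63.5% of 20903 genes. CP_6 had a higher level of 25 of the 26, and of 48.6% of all genes, and 21 of the 26 were at no more than 0.25 times CP_6, against 7.11% of all genes. *Gmnc*, an early regulator of multiciliated cells, was the exception, at 22.9 times (20.9 to 25.1) CP_6. The other regulators were not raised alike, with *Trp73* at 0.506 and *Foxj1* at 0.0920 times CP_6 and 2 UMIs each of *Mcidas* and *Ccno*. Axonemal genes ranged from *Spag16*, at 0.769 times CP_6, to *Spag17* and *Dnah12*, at 0.00788 and 0.00269 times.

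Of the 15 genes of the ependymal list, 11 were below the rest of the brain in CP_8, as were 63.5% of 20903 genes with at least 20 UMIs in the brain. Its summed level was 705 CPM in control and 957 CPM in CKO, against 12580 CPM in CP_6. CP_8 led 2 of its 8 genes with at least 20 UMIs, beside 11.2% of all genes. These were *Nek5* with 320 UMIs at 6.28 times the rest and *Mia* with 189 UMIs at 5.33 times. Counts this small do not set the list apart from all genes. *Cfap54*, the most abundant with 1222 UMIs, was at 2.70 times and *Hydin*, with 279 UMIs, at 1.14 times. Other members were nearly absent: *Sntn* had 0 UMIs, *Ccdc153* 1, *Rarres2* 2, *Tmem212* 11 and *Dnah12* 17. In CP_6 these 5 had 641, 2225, 2087, 7590 and 9868 UMIs.

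**Figure D2:**
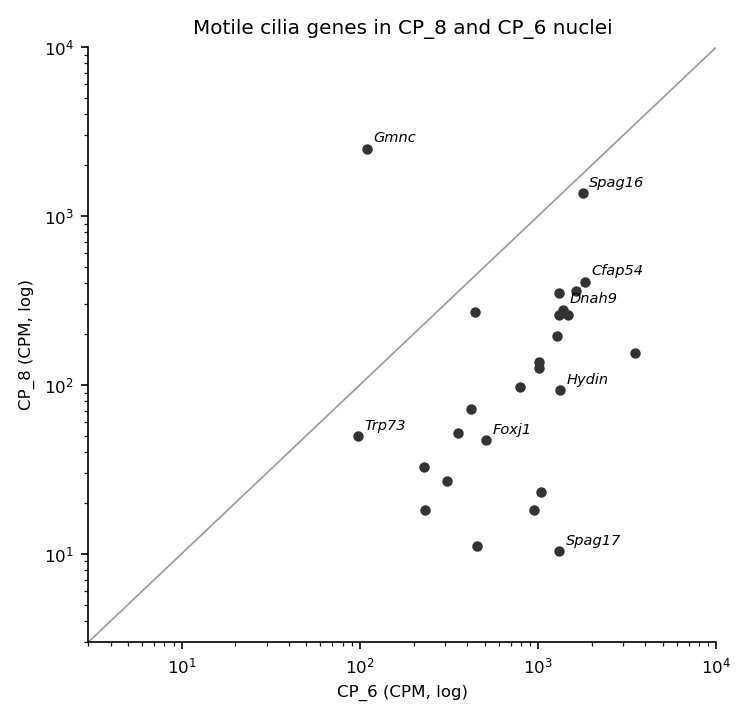
CPM (log axes) of the 26 motile cilia genes with at least 20 UMIs in CP_8, with CP_6 on the x axis and CP_8 on the y axis, summed over both libraries, and a line of equal levels. *Gmnc* lies above the line at 22.9 times CP_6, and the other 25 genes lie below it.

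Lists of other cell types had most of their genes below the rest of the brain, apart from the retinal pigment epithelium and the pineal and retinal lists. Their counts below the rest are to be read beside the 63.5% of all genes, and their counts of led genes beside the 11.2%. Of the endothelial list, 14 of 15 genes were below the rest, and its summed level was 924 CPM in control and 630 CPM in CKO. Its most abundant gene was *Mecom*, with 1585 UMIs, at 1.40 times the rest, whereas *Cldn5* had 31 UMIs. Of the pericyte list 10 of 10 genes were below the rest, at 108 and 81.1 CPM, with *Rgs5* the most abundant and *Ndufa4l2* at 0. The 12 pan-neuronal genes were all below the rest, at 7804 CPM in control and 8739 CPM in CKO, led by *Meg3* with 8109 UMIs. These levels are not typical of the label. Of the 17740 control and 6253 CKO UMIs on this list, 20504 lay in 138 nuclei, described below as subgroup 4. Of 13 astrocyte genes 12 were below the rest, at 694 and 1009 CPM, with *Slc4a4* the most abundant. Oligodendrocyte genes were below the rest in 12 of 12, at 166 and 200 CPM, with *St18* the most abundant and *Opalin* at 0. Of the microglial and macrophage list 13 of 15 were below the rest, at 75.7 and 68.5 CPM, with *Pf4*, *Lyve1* and *Cd74* at 0. Of 15 fibroblast genes 13 were below the rest, at 859 and 900 CPM, and *Bmp6*, the most abundant, was at 6.21 times the rest. Of the dentate granule neuron list 5 of 9 genes were below the rest, and 3 of the 8 with at least 20 UMIs in CP_8 were led. Its summed level was 3.80 times that of the rest, with *Rfx3*, which the choroid list holds too, the most abundant. The thalamic neuron list summed to 1.06 times the rest, with 7 of 11 below it and *Rora*, at 8210 UMIs, the most abundant. The retinal pigment epithelium list summed to 14.7 times the rest, with 2 of 8 genes below it. Of these 8, *Mitf* was the most abundant and the one led, at 15.8 times (15.2 to 16.5) with 3399 UMIs, while *Rpe65* had 1 UMI and *Best1* 0. Of 6 pineal and retinal genes with at least 20 UMIs in the brain, 3 were below the rest, and the list summed to 15.8 CPM in control and 21.0 CPM in CKO. The part of these transcripts in the comparison of the libraries was not tested.

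Clustering of the 1497 nuclei gave 15 subgroups at a resolution of 0.5, against 10 at 0.25 and 22 at 1. In 12 of them the 5 markers took between 7.31% and 11.6% of the UMIs. The other 3 had another cell type list raised, defined as more than 50% of its genes, and at least 3, with at least 5 UMIs and at 2 or more times the other CP_8 nuclei. This definition was set after the data had been seen. Subgroup 4, with 138 nuclei and a median of 4574 UMIs, was led by *Dlgap2*, *Epha6*, *Kctd16*, *Tafa2* and *Kcnh7*. It had raised 12 of 12 pan-neuronal and 9 of 10 glutamatergic genes, but also 9 of 12 oligodendrocyte and 10 of 15 endothelial genes. Of other lists it had raised 10 of 13 cerebellar granule neuron and 6 of 8 neuroblast genes, against 4 of 14 fibroblast and 2 of 15 ependymal genes. The 5 markers took 1.48% of its UMIs. Subgroup 3, with 154 nuclei, was led by *F13a1*, *Gm6145*, *Fgfr3*, *Rfx4* and *Atp1b2*, with 10 of 13 astrocyte and 11 of 13 cerebellar granule neuron genes raised and 3.61% on the markers. The 28 *F13a1* UMIs of this subgroup came from 5 nuclei. Subgroup 13, with 42 nuclei, was led by *Slc6a13*, *Ranbp3l*, *Ptgds*, *Alcam* and *Nnat*, with 8 of 14 fibroblast genes raised and 5.64% on the markers. The source of these transcripts was not tested. The share of all genes raised by the same rule was not counted, so these counts do not set the lists apart from all genes.

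These 3 subgroups together held 334 nuclei, 196 of the control library (21.7%, 19.1 to 24.6%) and 138 of the CKO library (23.2%, 19.9 to 26.8%). The shares overlapped in their intervals, and they depend on the resolution, with 489 such nuclei at 0.25 and 374 at 1. Their nuclei were deeper than the others, with medians of 3561 against 1588 UMIs in control and 1664 against 602 in CKO. Without them, the markers took 7.92% of control and 8.90% of CKO UMIs, and 61 choroid genes in place of 59 were led.

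Among the other subgroups, 3 came from 1 library by more than 95%. Subgroup 1 had 225 control and 0 CKO nuclei, subgroup 5 had 136 and 2, and subgroup 14 had 0 and 16. *Xist* was among the 5 leading genes of both subgroups 1 and 5. When the sex chromosome genes were left out of the clustering there were 12 subgroups, and 0 came from 1 library by more than 95%. The leading genes of subgroup 8, with 44 nuclei from each library, were *Six3os1*, *Gm29683*, *Irs2*, *Mrs2* and *Immp2l*, and *Six3os1* was at 4.43 times (2.82 to 6.71) the other CP_8 nuclei.

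**Figure D3:**
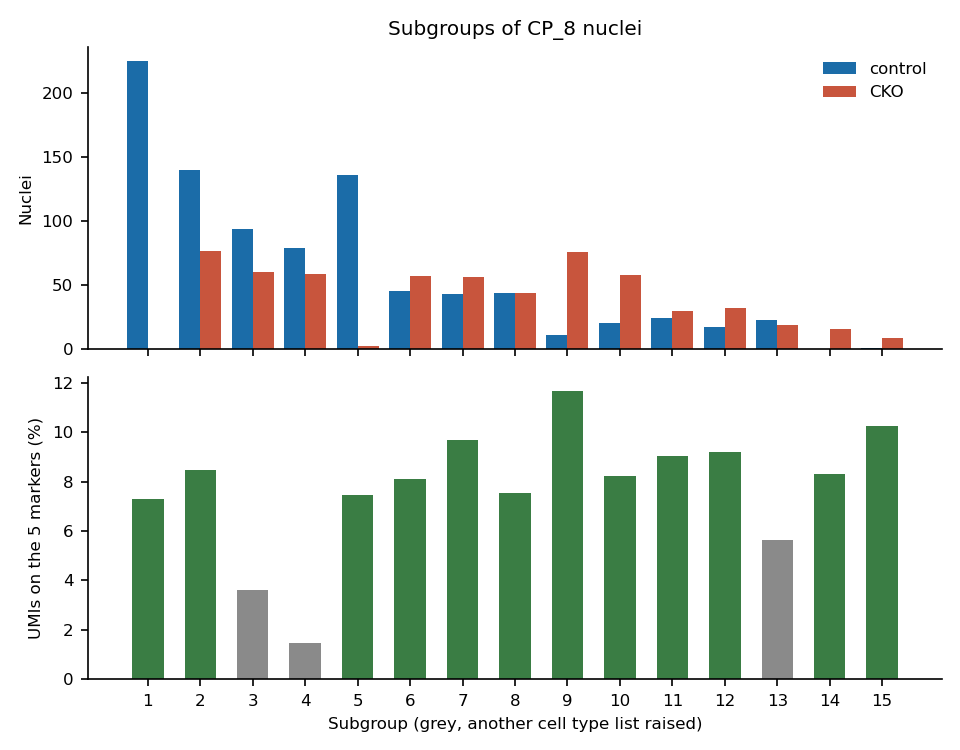
Nuclei per library (top, control in blue and CKO in red) and percent of UMIs on the 5 markers (bottom) in each of 15 subgroups of CP_8, with the 3 subgroups that have another cell type list raised in grey. Subgroup 1 holds 225 control and 0 CKO nuclei, and the lowest marker share, 1.48%, is that of subgroup 4.

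CP_8 made up 5.42% (5.08 to 5.77%) of control and 4.05% (3.74 to 4.39%) of CKO brain nuclei, a ratio of 0.748 (0.674 to 0.831). This ratio rests on depth and on the label. Among nuclei with at least 1000 UMIs it was 0.260, since the CP_8 nuclei of the CKO library were shallow. Counting all nuclei with at least 2 of the 5 markers in place of the label, it was 0.942. Such nuclei made up 11.9% of control and 11.2% of CKO nuclei, so most of them carried other labels. This last ratio is thus not one of choroid nuclei alone. With 1 library per genotype, the spread between preparations is unknown.

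The number of genes that differed by 2 times between the libraries depended on the nuclei kept and on weighting. Of 4482 genes with at least 100 UMIs in CP_8, 36 (0.803%) were at least 2 times as high in CKO as in control and 191 (4.26%) were at 0.5 times or less. Among nuclei with at least 1000 UMIs this balance turned, with 196 genes higher and 132 lower of 4272. In CKO, the median depth of the subgroups with another list raised, 1664 UMIs, passes this minimum. That of the other CP_8 nuclei, 602 UMIs, does not. With equal weight per nucleus 139 were higher and 886 lower of 4482, and without the 3 subgroups with another list raised 24 and 496 of 2464. Among the 69 choroid genes of that depth, 0 were at least 2 times as high and 1 was at 0.5 times or less, so their shares were near those of all genes. This gene was the folate transporter *Slc19a1*, with 96 UMIs in control and 10 in CKO, a ratio of 0.331 (0.154 to 0.635). The 4 choroid genes with the most UMIs had ratios near 1: these were 0.966 (0.953 to 0.979) for *Ttr*, 0.984 (0.962 to 1.01) for *Enpp2*, 1.08 (1.06 to 1.099) for *Trpm3* and 1.099 (1.08 to 1.12) for *Htr2c*. *Prlr* was lower in CKO, at 625 against 948 CPM and a ratio of 0.659 (0.594 to 0.730). The ratio was 1.34 (1.18 to 1.52) for *Otx2* and 1.35 (1.19 to 1.52) for *Lmx1a*.

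The median log2 ratio of CKO to control was 0.10 over 82 choroid genes with at least 20 UMIs, 55 of them above 0. Over all 9848 such genes it was 0.02, with 5081 above 0. TMM factors shift all genes alike, to a median of −0.10 over all genes and −0.01 over the choroid list. The choroid median changed sign among nuclei with at least 1000 UMIs, to −0.49, where the median of all genes was 0.17. The choroid list was thus above the median of all genes in all nuclei and below it in those with at least 1000 UMIs. This minimum also changes which nuclei are compared. In CKO, the subgroups with another list raised had a median of 1664 UMIs and 2.00% of UMIs on the markers. The other CKO nuclei of CP_8 had a median of 602 UMIs and 8.90% on the markers. The part of these subgroups in the change of sign was not tested.

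Motile cilia genes were higher in the CKO library as a group, but not among nuclei with at least 1000 UMIs. Their median log2 ratio was 0.48, with 25 of 26 above 0 and *Gmnc*, at −0.18, the one below. Lists of other cell types went both ways in CP_8. The median was 0.54 with 10 of 12 above 0 for astrocyte genes and 0.45 with 9 of 11 above 0 for fibroblast genes. It was −0.19 with 2 of 9 above 0 for endothelial genes, −0.19 with 1 of 10 for cerebellar granule neuron genes, −0.37 with 0 of 3 for pericyte genes and −1.56 with 1 of 4 for microglial and macrophage genes. The part of these lists in the cilia result was not tested. In CP_6, where these genes are more abundant, the median was 0.01, and in all other brain nuclei −0.57. The group median was 0.36 with TMM factors and 0.48 with nuclei thinned to 500 UMIs, but −0.24 among nuclei with at least 1000 UMIs, where 8 of 26 were above 0. Its direction thus changed with this minimum, which also changes which nuclei are compared, and the cause was not tested.

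**Figure D4:**
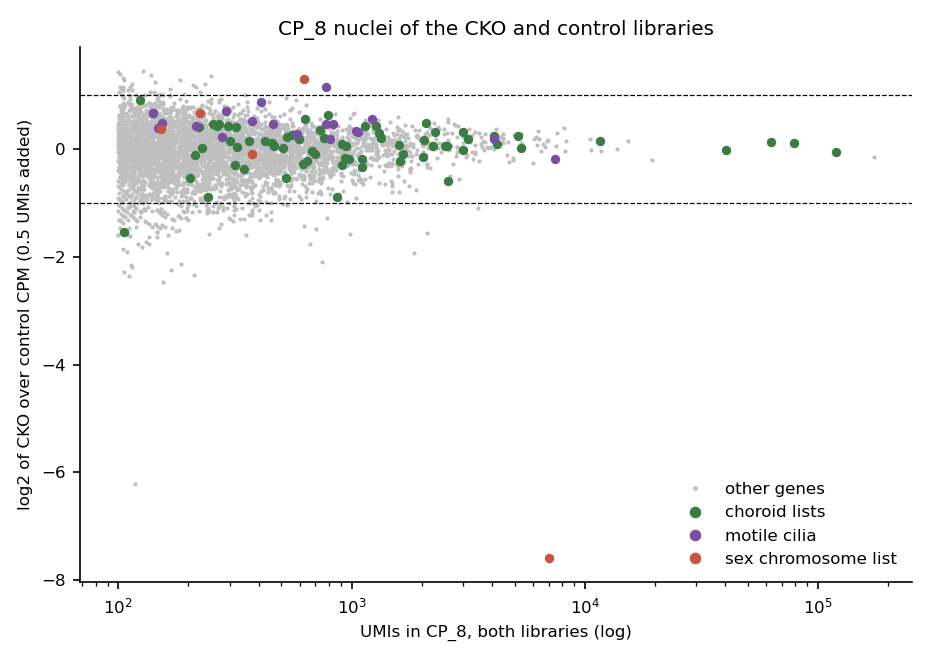
Log2 of the CKO over control CPM ratio in CP_8, with 0.5 UMIs added to each count, against the UMIs of the gene in both libraries (log axis) for 4482 genes with at least 100 UMIs. Dashed lines mark ratios of 2 and 0.5, choroid genes (green) lie between them apart from *Slc19a1*, and *Xist* is the lowest point.

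TGF-beta and BMP pathway genes lay on both sides of equal levels in CP_8. Of 36 genes, 31 had at least 20 UMIs, with a median log2 ratio of 0.07 and 17 above 0. CP_8 led 3 of the 31, beside 11.2% of all genes, and 19 of the 36 were below the rest, beside 63.5%. The 3 led were the ligands *Tgfb2*, *Bmp6* and *Bmp7*, at 6.12, 6.21 and 7.88 times the rest. Within the libraries *Tgfb2* was at 8.89 times in control and 4.04 times in CKO, *Bmp6* at 4.83 and 11.2 times, and *Bmp7* at 5.84 and 15.9 times. Their CKO over control ratios were 0.971 (0.851 to 1.105), 1.05 (0.929 to 1.18) and 1.34 (1.02 to 1.75). The receptor *Tgfbr2* was at 157 CPM in control and 109 CPM in CKO, a ratio of 0.694 (0.536 to 0.889), and *Tgfbr1* had a ratio of 0.663 (0.428 to 0.994). The *Tgfbr1* interval held 1 among nuclei with at least 1000 UMIs, at 0.7498 (0.455 to 1.18), without the 3 subgroups with another list raised, at 0.544 (0.260 to 1.03), and in thinned nuclei, at 0.677 (0.220 to 1.78). Lower CKO levels were not particular to CP_8. In CP_6, *Tgfbr2* was at 230 CPM in control and 163 CPM in CKO, and *Tgfbr1* at 21.5 (16.8 to 27.1) and 15.4 CPM (9.51 to 23.5). Over all brain nuclei *Tgfbr1* was at 36.5 and 26.2 CPM, whereas *Tgfbr2* was at 84.8 and 179 CPM.

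The targets of the pathway differed from each other. *Id3*, an inhibitor of helix-loop-helix factors that BMP signals induce, had 200 UMIs in control and 12 in CKO, a ratio of 0.191 (0.0969 to 0.340). *Id1* had 54 and 3 UMIs, a ratio of 0.176 (0.0353 to 0.544). The related genes *Id2* and *Id4* were at 0.888 (0.552 to 1.38) and 0.760 (0.503 to 1.12). *Id3* was also lower in the CKO nuclei of CP_6, at 0.326 (0.1001 to 0.832) on 37 and 5 UMIs, but not in all other brain nuclei, at 1.13. *Pmepa1*, a TGF-beta target that feeds back on the pathway, went the other way, with 63 and 42 UMIs and a ratio of 2.12 (1.40 to 3.18). These 3 kept their direction among nuclei with at least 1000 UMIs, where *Id3* was at 0.288, *Id1* at 0.271 and *Pmepa1* at 2.84. In nuclei thinned to 500 UMIs *Id3* was at 0.165 (0.0325 to 0.520), whereas the intervals of *Id1*, at 0.203 (0.00468 to 1.43) on 10 and 1 UMIs, and of *Pmepa1*, at 3.25 (0.937 to 12.6) on 5 and 8 UMIs, held 1. Without the 3 subgroups that had another list raised, *Id3* had 150 and 1 UMIs and a ratio of 0.0244 (0.000614 to 0.138).

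Among genes with at least 100 UMIs in CP_8, the lowest CKO over control ratios outside the sex chromosome genes were those of *Gm49980*, *Retreg1*, *Mtarc2*, *Sgcb*, *Id3*, *Lipa*, *Eno1b*, *Cd82*, *Cox6a1* and *Gm36264*. *Gm49980* had 118 UMIs in control and 0 in CKO, so it was at least 12.4-fold lower against a floor of 3 UMIs, and at least 5.25-fold lower with 32 and 0 UMIs in nuclei thinned to 500 UMIs. *Gm36264*, a lncRNA, had 698 and 51 UMIs, and the other 8 lay between 0.172 and 0.219. *Lipa* codes for the lysosomal acid lipase and *Cox6a1* for a subunit of cytochrome c oxidase. Of the sex chromosome genes, *Uty* was at 2.47 (2.11 to 2.91). Among the other genes with at least 100 UMIs, the highest ratios were those of *Wbp11*, *Tmem63b*, *Sema5a*, *Ak8*, *Eif4g1*, *Tcaim*, *Gfpt1*, *Ntn1*, *Map4* and *Kif6*, between 2.31 and 2.72. *Eif4g1*, a scaffold of translation initiation, had the most UMIs among them, 138 in control and 111 in CKO, and was at 2.56 (1.97 to 3.305). Single genes were also read with TMM factors, among nuclei with at least 1000 UMIs, without the 3 subgroups and in thinned nuclei. Of these 20 genes, all had the same direction under each of these settings in which they kept at least 10 UMIs, but the size of several ratios changed. Equal weight per nucleus was not run for single genes. Without the 3 subgroups *Tmem63b*, *Sema5a* and *Map4* fell under 10 UMIs, so most of their UMIs lay in those subgroups. Among nuclei with at least 1000 UMIs *Ak8* was at 1.502 (0.896 to 2.43) and *Kif6* at 1.40 (0.937 to 2.05), and both intervals held 1. So did those of *Ntn1* without the 3 subgroups, at 2.25 (0.810 to 5.86), and in thinned nuclei, at 3.25 (0.937 to 12.6), and of *Mtarc2* in thinned nuclei, at 0.226 (0.00515 to 1.63) on 9 and 1 UMIs. *Gm36264* was at 0.232 (0.171 to 0.309), at 0.347 (0.255 to 0.463) among the nuclei with at least 1000 UMIs and at 0.0829 (0.0221 to 0.219) in thinned nuclei. Without the 3 subgroups with another list raised it had 297 and 0 UMIs and was at least 27.0-fold lower. In thinned nuclei *Eif4g1* was at 6.26 (3.19 to 13.2) on 12 and 37 UMIs and *Tcaim* at 19.3 (4.65 to 171) on 2 and 19 UMIs. There *Sema5a* was at 8.12 (1.62 to 78.5) and *Map4* at 7.62 (2.43 to 31.5). *Lipa* was at 0.0495 (0.00122 to 0.292) and *Cd82* at 0.0615 (0.00151 to 0.368) in these thinned nuclei. Without the 3 subgroups *Wbp11* was at 4.22 (2.57 to 6.94), *Gfpt1* at 3.86 (2.62 to 5.71) and *Mtarc2* at 0.0495 (0.00124 to 0.284). For these genes too, genotype, sex and depth cannot be told apart.

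Promoters of the led genes were read because *Rfx2*, *Rfx3* and *Otx2* were among the led transcription factors, although *Rfx2* was lower than in CP_6. RefSeq promoters of the GRCm38.p6 build, which run from 250 bases before to 50 after the start, were found for 44 of the 59 led choroid genes and for 13 of the 20 leading genes. The letters GTTGCC or, on the other strand, GGCAAC, which begin the X-box read by RFX factors, were in promoters of 12 of the 44 (27.3%) and 5 of the 13 (38.5%). They were in those of 14.1% of 27025 genes. The 5 include *Defb9* and *Defb11*, which belong to 1 gene family. The letters TAATCC or GGATTA, which OTX factors read, were in 6 of the 44 (13.6%) and 1 of the 13 (7.69%), against 8.14% of all genes. A match is a description and not a site. Promoters of 3 ion and water transport genes led by CP_8 are shown with the RFX letters in capitals, for *Kcne2* (chr16:92292139-92292438, plus strand), *Aqp1* (chr6:55336049-55336348, plus strand) and *Slc4a10* (chr2:62046265-62046564, plus strand). That of *Otx2* (chr14:48665060-48665359, minus strand) is shown with the OTX letters in capitals.
Kcne2: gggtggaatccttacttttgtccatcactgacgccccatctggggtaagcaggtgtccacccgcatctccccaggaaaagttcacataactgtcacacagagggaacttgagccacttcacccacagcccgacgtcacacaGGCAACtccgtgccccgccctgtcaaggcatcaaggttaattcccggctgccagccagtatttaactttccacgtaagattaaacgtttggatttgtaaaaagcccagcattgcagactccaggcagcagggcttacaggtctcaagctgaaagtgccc
Aqp1: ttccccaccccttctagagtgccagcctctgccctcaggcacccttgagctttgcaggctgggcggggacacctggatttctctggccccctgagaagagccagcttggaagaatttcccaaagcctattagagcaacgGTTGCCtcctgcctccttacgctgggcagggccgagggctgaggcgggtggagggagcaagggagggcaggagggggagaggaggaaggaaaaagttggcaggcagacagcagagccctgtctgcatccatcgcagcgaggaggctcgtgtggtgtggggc
Slc4a10: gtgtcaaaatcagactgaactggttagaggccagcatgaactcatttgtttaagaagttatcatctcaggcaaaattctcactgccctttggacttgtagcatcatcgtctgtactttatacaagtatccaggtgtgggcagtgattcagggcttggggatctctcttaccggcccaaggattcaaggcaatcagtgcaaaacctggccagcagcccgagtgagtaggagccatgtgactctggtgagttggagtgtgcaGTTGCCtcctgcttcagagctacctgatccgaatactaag
Otx2: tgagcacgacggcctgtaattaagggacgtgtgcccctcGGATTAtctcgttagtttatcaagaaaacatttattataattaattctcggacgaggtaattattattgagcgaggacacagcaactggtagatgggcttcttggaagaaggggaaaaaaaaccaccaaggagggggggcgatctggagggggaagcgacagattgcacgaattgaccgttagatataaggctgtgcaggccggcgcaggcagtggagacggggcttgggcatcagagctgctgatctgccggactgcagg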

How the data were processed

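The deposited values, whole-number UMI counts, were made by the authors from PIPseq v4.0 PLUS libraries of nuclei with PIPseeker 3.3.0 on its GRCm39 index (2023.04). The submitters' processing notes name mm10 and Seurat instead. The authors removed empty droplets and background with CellBender 0.3.2 and doublets with SOLO (scVI-tools 1.2.2-post2), then mixed nuclei by hand. No doublet caller was run again and no nucleus was left out. Their labels were used as deposited, and the retina libraries were not used. UMIs were summed per label and library and given as CPM with exact Poisson intervals, ratios with exact conditional binomial intervals (counts of 0 set to a floor of 3) and shares with exact binomial intervals. Of these only the ratios and their intervals were first tested on simulated sums, which held counting error alone. Log2 ratios added 0.5 UMIs. Members and lists were chosen with earlier results of these data known. Named genes are the markers, the choroid lists, *Tgfbr1*, *Tgfbr2*, *Tgfbr3*, *Cdh5*, sex genes, the most abundant gene of each other list and 5 leading genes per subgroup. Also named, among genes with at least 100 UMIs in CP_8, are the 20 highest ratios to the rest and the 10 highest and 10 lowest CKO over control ratios. *Id1*, *Pmepa1* and further list members were picked after their values were seen. Subgroups used 1000 variable genes, 15 components, 15 neighbors and Leiden resolution 0.5 (scanpy 1.11.5, leidenalg 0.10.2). TMM factors came from edgeR 4.0.16. Sums and intervals were computed with scipy 1.17.1 and numpy 2.4.6 under Python 3.11.15, tables with pandas 2.3.3, and plots with matplotlib 3.10.9. Alternatives covered filters, scaling, weights, depth, comparators and subgroups. Gene positions are those of GENCODE for GRCm39. Some members of the lists are not reported here.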

Additional observations from a re-analysis of the deposited data

How the results depend on the processing

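Choroid genes led by CP_8 numbered 55 to 64 under 7 of 8 alternatives and 27 against the highest other label. The CP_8 share of control and CKO nuclei was 6.54% and 1.70% (ratio 0.260) among nuclei with at least 1000 UMIs, and 6.36% and 5.07% without ECs. Nuclei with at least 2 markers, most of them of other labels, made up 11.9% and 11.2% (0.942). Genes at least 2 times as high in CKO, 36 above, numbered 159 with at least 50 UMIs, 9 with at least 200, 3840 with no minimum, 19 with TMM factors, 139 with equal weight per nucleus, 196 in nuclei with at least 1000 UMIs, 19 thinned to the smaller sum and 8 with nuclei thinned to 500. Genes at 0.5 times or less, 191 above, numbered 444, 65 and 2338 under these minimums, 284 with TMM factors, 886 with equal weight, 132 in nuclei with at least 1000 UMIs, 59 and 45 when thinned, and 496, of only 2464 genes, without the subgroups with another list raised. In nuclei with at least 1000 UMIs the higher genes thus outnumbered the lower ones. In the order TMM factors, equal weight, nuclei with at least 1000 UMIs and without those subgroups, the median log2 ratio was −0.013, 0.22, −0.49 and 0.27 for choroid genes and 0.36, 0.60, −0.24 and 0.69 for motile cilia genes. That of the TGF-beta and BMP list was −0.050 with TMM factors, −0.030 with at least 50 UMIs per gene, −0.038 with at least 1000 UMIs and −0.035 with thinned nuclei. TMM factors shift all genes alike, so a change of sign under them follows from the scaling. The 15 subgroups were 10 at resolution 0.25, 22 at resolution 1, 12 without sex genes and 7 in each library clustered alone, and the 334 nuclei with another list raised were 489, 374 and 286 in the first 3 of these. Of 96 alternative ratios of named genes, 22 moved out of their interval and 0 turned. Thinning of nuclei for the marker shares was planned. Thinned nuclei for gene ratios, gene counts and list medians, and nuclei without those subgroups, were added after seeing the data. So were the minimum of 1000 UMIs for list medians, and each library clustered alone or without sex genes. Fewer genes or UMIs account for part of the changed counts by construction, and otherwise the cause was not tested. Depth limits genes under 100 UMIs most, above all in the CKO library. No paired analysis was possible because each genotype had 1 brain library and no test was made.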
